A study of Rattus norvegicus with 24 samples.

Results

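Rats that kept taking methamphetamine (METH) while it was punished with footshocks (shock resistant, SR) were compared with rats that cut their intake under the same punishment (shock sensitive, SS). These are 12 of the 24 arrays of the series, 6 per group, chosen by their labels, and they report RNA of the nucleus accumbens (NAc) from 1 rat each on the Affymetrix Rat Transcriptome Array 1.0. All rats were male Sprague Dawley rats without genetic modification. SR and SS rats had both learned to press a lever for intravenous METH with long daily access, had both then received footshocks contingent on some of their own presses, and were both killed after about a month of withdrawal, on the day after their second cue test. The other 12 arrays come from saline controls (CT, 6 arrays) and from saline rats given non-contingent footshocks whenever a partner was shocked, the partner being an SR rat (YSR, 3 arrays) or an SS rat (YSS, 3 arrays). SR and SS rats were sorted after punishment by their own behaviour and not assigned. Their METH intake, the shocks they took, their pressing in the cue test and any earlier trait cannot be told apart here.

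The NAc is the ventral part of the striatum. Most of its neurons are GABAergic spiny projection neurons, which carry either D1 or D2 dopamine receptors and integrate cortical, limbic and dopaminergic input during the pursuit of reward. METH enters dopamine terminals through the dopamine transporter, empties vesicular stores and reverses the transporter, so that extracellular dopamine rises. The firing and release of neurons are paid for by mitochondrial ATP, which is made by the respiratory complexes and ATP synthase from substrates supplied by glycolysis and the citric acid cycle.

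Signals are log2 values as deposited. A probe, here 1 transcript cluster of the array, was tested when its mean in CT was above that of the bioB spike-in, which left 9044 probes and, among them, 3666 genes with 1 symbol on the right chromosome. Differences are SR minus SS from limma, fitted to all 24 arrays. The tested probes had medians between 11.73 and 11.86 in SR arrays and between 11.76 and 11.89 in SS arrays. The 95th percentile of the negative controls ran from 9.64 to 10.31 in SR and from 10.02 to 10.32 in SS, and it was lowest in SR replicates 5 and 6. Where a group had 0 of its 6 arrays above that percentile, the log2 difference is given and no fold.

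Markers of spiny neurons, among them the dopamine receptors Drd1 and Drd2, were well above background in both groups. The mean over 9 spiny neuron markers ran from 12.24 to 13.37 in SR and from 11.53 to 13.42 in SS, with 0 of 9 at an unadjusted p under 0.05. SS replicate 1 had the lowest of these levels, and it alone had a high signal of Ttr, the thyroxine carrier made by the choroid plexus. Ttr was at 15.88 there, against 5.39 to 6.07 in SR and 5.73 to 6.4 in the other SS arrays. The mean over 5 choroid plexus markers was 8.92 there, against 4.89 to 5.17 in SR. The other markers, Kl, Folr1, Clic6 and Aqp1, were below background on all 12 arrays. SR replicates 2 and 5 had the highest cortical glutamatergic markers, with means of 9.15 and 9.67 over 6 markers, against 7.92 to 8.61 in the other SR arrays and 7.77 to 8.39 in SS. Neurod6 and Tbr1 stayed under the background limit on all 12 arrays. In bulk tissue a change in the number of cells of a type and a change in RNA per cell cannot be told apart.

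No probe separated SR from SS after correction for the number of probes. At a limma adjusted p under 0.05, 0 of 9044 probes were called (0.0%), and the smallest adjusted p was 0.378. At an unadjusted p under 0.05 there were 1133 probes, 521 higher in SR (5.76%) and 612 lower in SR (6.77%). Among the 3666 genes, 401 were higher (10.9%) and 46 were lower (1.25%). This split depends on scaling. When the arrays were centred on the median of the named clusters, 195 genes were higher and 246 lower, and 244 probes higher and 1128 lower, while quantile normalization gave 861 probes higher and 680 lower. The differences were small, with a median of 1.17-fold for the higher and 1.18-fold for the lower genes, and 0 of these 401 and 46 genes passed 1.7-fold. Every SR array lay above every SS array for 20 genes (0.546%) and below for 3 (0.0818%). The tested genes described below as higher or lower have adjusted p-values of 0.378 to 0.395, so none of them is a call. Values marked log2 after a fold or a difference are the 95% interval of the SR minus SS difference, not adjusted for the number of genes. Without SR replicate 1, 298 probes passed the adjusted threshold (122 higher and 176 lower), and with array weights, which gave that array 0.267 and SR replicate 5 0.212, 751 did (367 higher and 384 lower).

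The gene with the smallest unadjusted p was Ndufab1, the acyl carrier subunit of respiratory complex I. Its signal had a minimum of 10.17, a median of 10.37 and a maximum of 10.46 in SR, against 9.97, 10.08 and 10.12 in SS. All 6 SR arrays were above all SS arrays. Against background, all 6 SR arrays but only 1 of 6 SS arrays were above it. The difference of 0.30 (95% interval 0.16 to 0.43) is 1.23-fold. Ndufs1, the iron-sulfur subunit of the same complex, had 12.10, 12.52 and 12.78 in SR as lowest, median and highest values, against 11.98, 12.19 and 12.33 in SS. Here 5 of 6 SR arrays exceeded every SS array and SR replicate 1 lay among them (1.27-fold, log2 0.15 to 0.54).

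**Figure D1:**
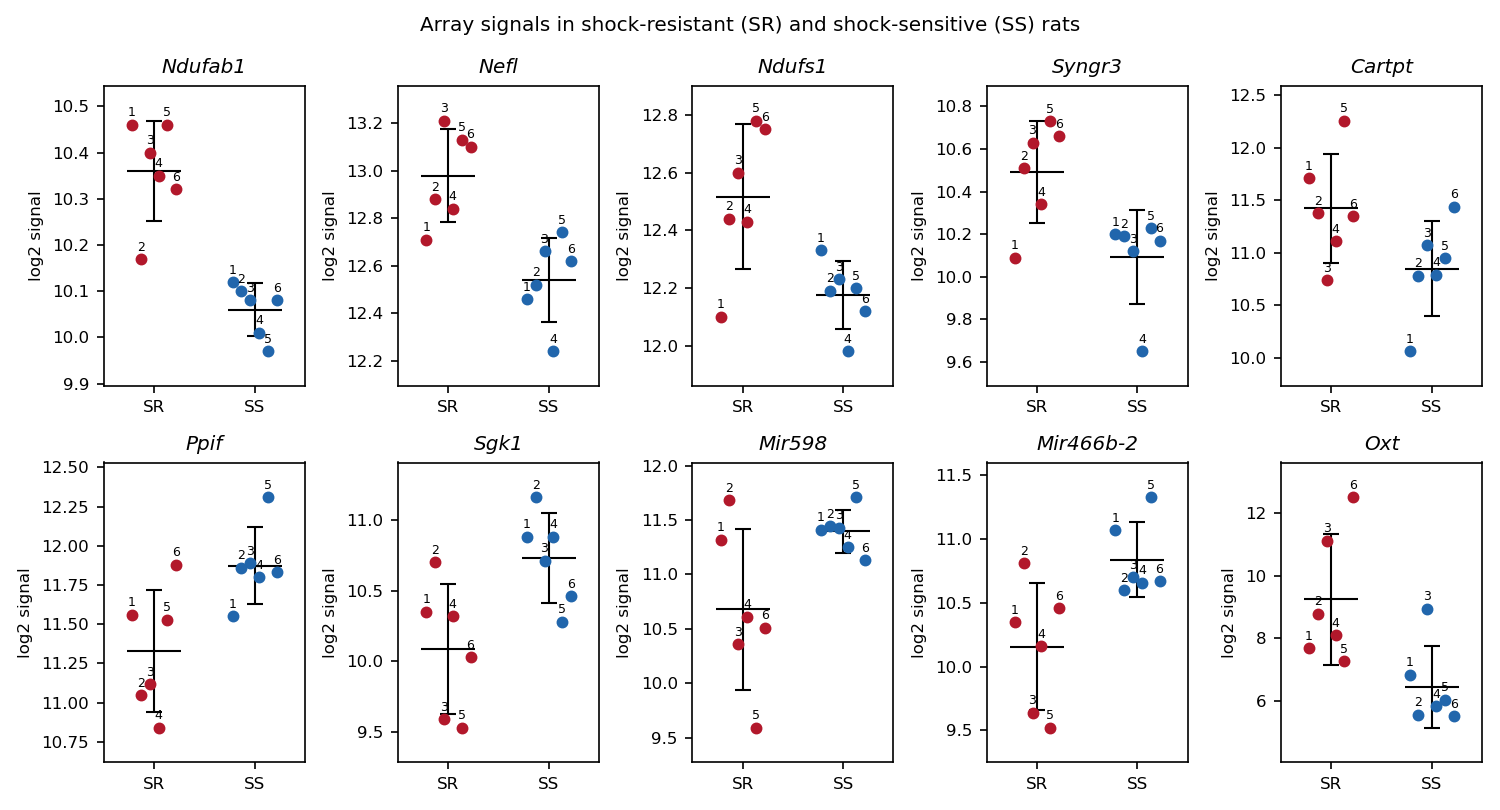
Log2 signals of 10 genes on the 6 SR arrays (red) and the 6 SS arrays (blue), with replicate numbers beside the points and the mean ± SD as bars. The groups do not overlap for Ndufab1, they overlap in part for the others shown, and SR replicate 1 often lies near the SS arrays. Oxt is under the signal filter.

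Genes of energy metabolism were often higher in SR. Of 62 tested members of 5 lists (complex I, complexes II to IV, ATP synthase, the citric acid cycle with pyruvate dehydrogenase, and glycolysis), 34 were higher at an unadjusted p under 0.05 (54.8%), against 10.9% of all tested genes, and 0 were lower. Their median difference was 0.18, against 0.06 over all tested genes, and 59 of 62 were above 0. In complex I, 7 of 16 tested members were higher (38 listed, 35 measured), and they included the core subunits Ndufv1 and Ndufv2. Ndufv2 had 11.80, 12.04 and 12.11 in SR as lowest, median and highest values, against 11.65, 11.70 and 11.84 in SS (1.20-fold, log2 0.11 to 0.43). In complexes II to IV, 4 of 9 were higher. Sdha, the flavoprotein of succinate dehydrogenase, was 1.20-fold higher (log2 0.08 to 0.44), with 5 of 6 SR arrays above every SS array and SR replicate 1 below all of them. Cox6c, a subunit of cytochrome c oxidase, was 1.19-fold higher (log2 0.03 to 0.46). Of the ATP synthase genes, 5 of 9 were higher. Atp5f1b, the catalytic beta subunit, had 14.50, 14.73 and 14.80 in SR, against 14.42, 14.47 and 14.56 in SS (1.15-fold, log2 0.07 to 0.34).

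In the citric acid cycle, 9 of 16 tested members were higher. Cs, which condenses acetyl-CoA with oxaloacetate, had 10.13, 10.56 and 10.78 in SR as lowest, median and highest values, against 10.09, 10.28 and 10.38 in SS (1.22-fold, log2 0.06 to 0.50), and 5 of 6 SR arrays were above every SS array. Sucla2, the ATP-forming subunit of succinyl-CoA ligase, was 1.18-fold higher (log2 0.10 to 0.38) and Mdh2, mitochondrial malate dehydrogenase, 1.16-fold (log2 0.03 to 0.41). Fh, fumarate hydratase, differed by 0.31 (log2 0.08 to 0.53), with 4 of 6 SR arrays and 0 of 6 SS arrays above background. Glycolysis had the highest share of all lists, 9 of 12 tested members, with a median difference of 0.22. They included Hk1, the hexokinase of brain, with 12.30, 12.72 and 12.83 in SR against 12.12, 12.38 and 12.68 in SS (1.20-fold, log2 0.07 to 0.45), and Ldhb, the lactate dehydrogenase subunit favoured in oxidative tissue (1.21-fold, log2 0.09 to 0.47). Tpi1 and Pfkm, a triose phosphate isomerase and a phosphofructokinase, were 1.16-fold (log2 0.03 to 0.40) and 1.14-fold higher (log2 0.03 to 0.35).

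Beside the enzymes, 7 of 19 tested genes of mitochondrial import, exchange and dynamics were higher (36.8%, against 10.9% of all tested genes) and 0 were lower. Vdac1, the main pore of the outer membrane, was 1.22-fold higher (log2 0.11 to 0.46). The phosphate carrier Slc25a3 was 1.19-fold (log2 0.09 to 0.40), the ADP/ATP carrier Slc25a5 1.20-fold (log2 0.07 to 0.44) and the fusion protein Mfn2 1.20-fold higher (log2 0.11 to 0.42). Lrpprc, which stabilizes mitochondrial mRNAs, was 1.18-fold higher (log2 0.10 to 0.38), with 5 of 6 SR arrays above every SS array. A pair of mitochondrial genes ran the other way. Cox16, an assembly factor of cytochrome c oxidase, had 12.36, 12.45 and 12.48 in SR and 12.50, 12.63 and 12.75 in SS, with no overlap (1.13-fold lower, log2 -0.31 to -0.06). Ppif, cyclophilin D of the permeability transition pore, had 10.84, 11.33 and 11.88 in SR and 11.55, 11.85 and 12.31 in SS. It was 1.46-fold lower (difference -0.54, 95% interval -0.86 to -0.23), with 4 of 6 SR arrays below every SS array.

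**Figure D2:**
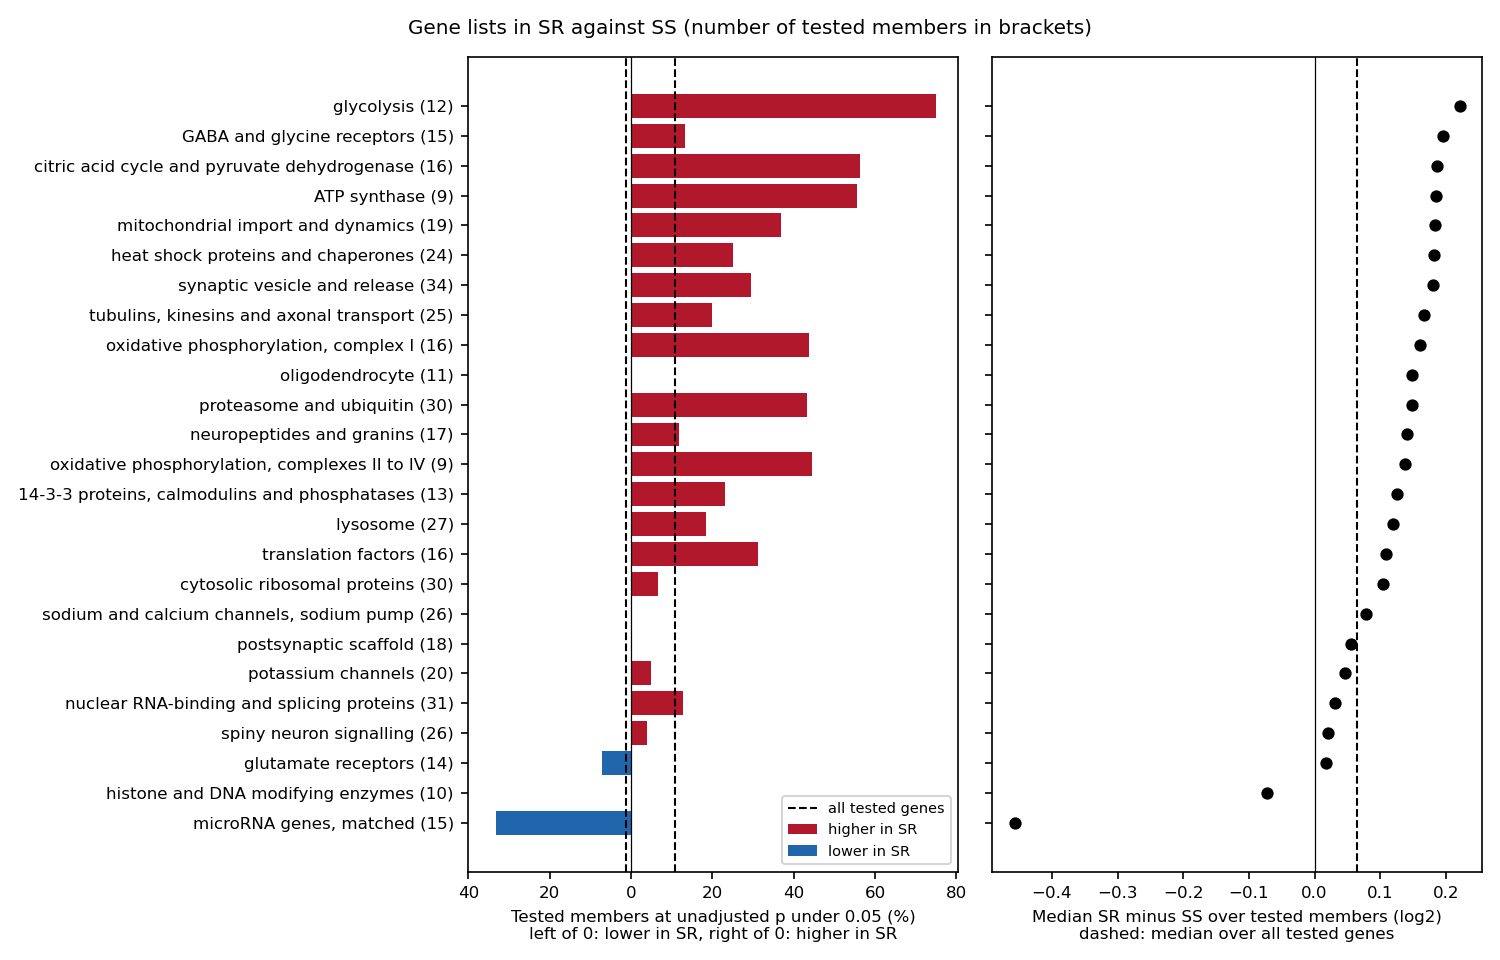
Gene lists with at least 9 tested members. Left, the percentage of tested members higher (red) or lower (blue) in SR at an unadjusted p under 0.05, with dashed lines at 10.9% and 1.25% for all tested genes; right, the median SR minus SS difference (log2), with a dashed line at the median of all tested genes. Glycolysis lies at the top with 9 of 12 members higher and a median of 0.22, microRNA genes at the bottom with a median of -0.46.

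These lists did not stand equally high on all SR arrays. The mean signal of the 62 energy genes was 12.03, 12.05, 12.28, 12.19, 12.35 and 12.30 in SR replicates 1 to 6, against 11.94 to 12.07 in SS. Replicates 1 and 2 lay inside the SS range and the other 4 lay above it. The same order held for the 30 proteasome and ubiquitin genes, with 11.44 in SR replicate 1, 11.51 in replicate 2 and 11.61 to 11.84 in the others, against 11.41 to 11.53 in SS. Without SR replicates 5 and 6, 7 of the 62 energy genes were higher at an unadjusted p under 0.05, against 125 of all 3666 tested genes. Without SR replicate 6 or SS replicate 4 alone, 17 of the 62 were higher, against 265 and 254 of all tested genes. Centring the arrays on the named genes gave 20 of the 62, against 195 of all tested genes.

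The mean over noncoding clusters moved in the opposite direction. Of 1261 tested clusters that the array annotation calls noncoding, 310 were lower (24.6%) and 11 were higher in SR, with a median difference of -0.26. Of 4332 coding clusters, 74 were lower (1.71%) and 448 higher (10.3%), with a median of 0.06. The mean noncoding signal was 13.04, 12.89, 12.62, 12.64, 12.12 and 12.47 in SR replicates 1 to 6, against 12.87 to 13.04 in SS. The 4 SR arrays with the low noncoding means, 3 to 6, are those with the high energy gene means, and SR replicates 5 and 6 also had the lowest negative controls. The part of this shift in the gene list differences was not tested. Without SR replicates 5 and 6, 52 noncoding clusters were lower, among 152 lower probes of all classes.

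**Figure D3:**
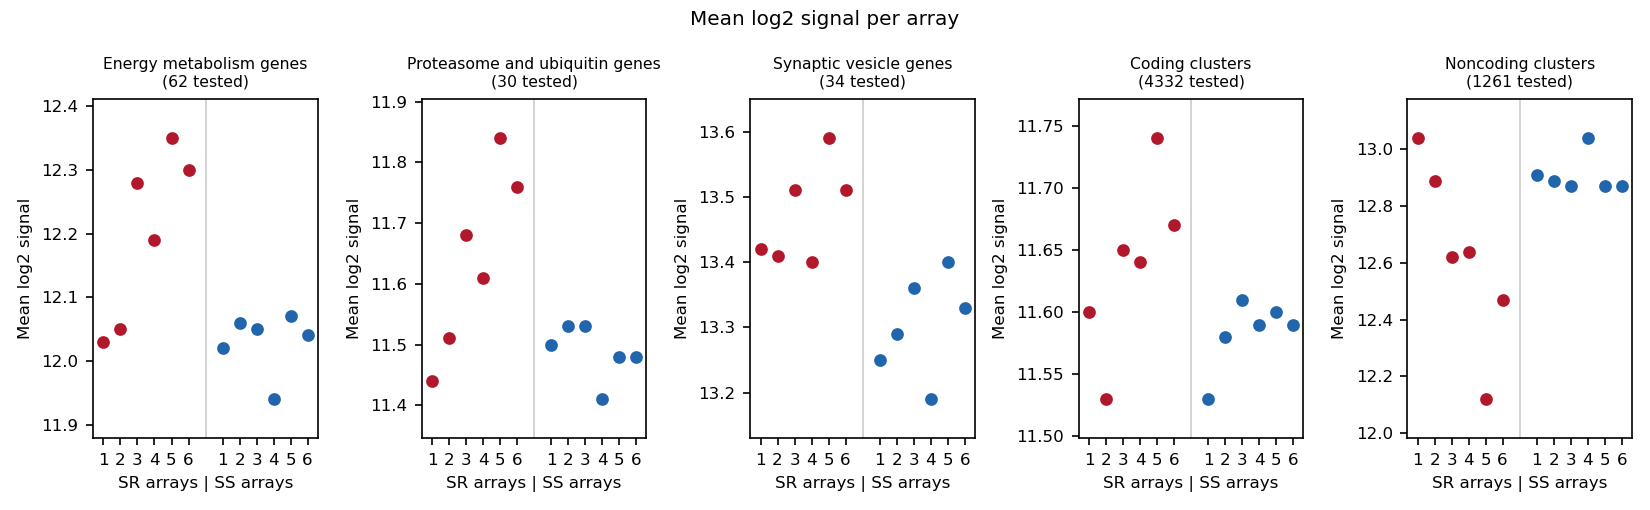
Mean log2 signal over 3 gene lists and 2 classes of cluster on each SR array (red, left in each panel) and SS array (blue, right). SR replicates 1 and 2 lie within the SS range for energy metabolism genes, and SR replicate 5 has the highest list means and the lowest noncoding mean, 12.12.

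At 1.7-fold with an unadjusted p under 0.05, the criterion of the study's methods, 70 probes passed (0.774%), 0 higher and 70 lower in SR. They ranged from 1.7-fold to 2.91-fold lower. Of these, 53 were noncoding, 14 unassigned, 2 coding and 1 complex clusters, and 67 had no gene symbol. For 0 of 70 did all SR arrays lie below all SS arrays. Their mean signal was 13.70 in SR replicate 1 and 11.22 in SR replicate 5, against 13.10 to 13.70 in SS. The other 3 carried microRNA symbols that could not be matched to a rat gene on the cluster's chromosome, and they are not counted as genes.

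MicroRNAs are short RNAs, cut from a hairpin precursor, that repress mRNAs matched by their seed, bases 2 to 8. The clusters cover the precursor, so the mature form was not measured on its own. Those of Mir3577, Mir3102, Mir124-1 and Mir770 are much longer than a hairpin and also report the longer transcript. They and Mir384 are the 5 of the 15 tested microRNA genes described next with a difference above 0. Of 15 tested microRNA genes on the right chromosome, 5 were lower in SR at an unadjusted p under 0.05 (33.3%, against 1.25% of all tested genes and 24.6% of noncoding clusters, so that the share is near that of noncoding clusters) and 0 were higher, with a median difference of -0.46. Of the 5, 4 have mature sequences in the RefSeq table of GRCr8, and they are shown, seed in capitals, because their 8 arms hold 8 different seeds.
miR-100-5p (chr8:50798307-50798328, plus strand): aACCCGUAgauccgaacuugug
miR-100-3p (chr8:50798342-50798360, plus strand): cAAGCUUGugucuauaggu
miR-466b-2-3p (chr17:72942475-72942495, minus strand): aUAUACAUacacacauacaca
miR-466b-5p (chr17:72942513-72942534, minus strand): uAUGUGUGuguguauguccaug
miR-667-5p (chr6:134555351-134555374, plus strand): cGGUGCUGguggagcagugagcac
miR-667-3p (chr6:134555392-134555413, plus strand): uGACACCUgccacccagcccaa
miR-1912-5p (chrX:115498035-115498055, plus strand): uGCUCAUUgcaugggcuaugu
miR-1912-3p (chrX:115498072-115498090, plus strand): cACAGAACaugcagugaga
The same miR-466b-5p is also made from Mir466b-1, whose own 3p arm has another seed:
miR-466b-3p (chr17:72945512-72945533, minus strand): aUACAUACacacacacauacac

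Mir598 had the largest difference of the 15. Its signal was 9.59, 10.56 and 11.68 in SR as lowest, median and highest values, against 11.13, 11.42 and 11.71 in SS. The 4 SR arrays with low noncoding means lay below every SS array, and SR replicates 1 and 2 did not (1.64-fold lower, 95% interval of the difference -1.26 to -0.18). Mir466b-2 had 9.52, 10.26 and 10.81 in SR, against 10.60, 10.69 and 11.33 in SS (1.60-fold lower, log2 -1.20 to -0.16), with 5 of 6 SR arrays below every SS array. Mir466b-1, which shares the 5p arm, differed by -0.60 with an interval that includes 0 (-1.24 to 0.03). The clusters of Mir598, Mir466b-2 and Mir466b-1 each occur in duplicate with identical values and were counted once. Mir667 was 1.37-fold lower (log2 -0.84 to -0.08). Mir100 and Mir1912 differed by -0.54 (log2 -0.92 to -0.17) and -0.52 (log2 -0.99 to -0.04), with 0 of 6 SR arrays of each above background. In SS, Mir100 was above background in replicate 5 alone, at 10.18, and Mir1912, at 9.04 to 9.94, in no replicate. Mir770, whose cluster is one of those longer than a hairpin, had a difference of 0.26 (-0.13 to 0.65).

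**Figure D4:**
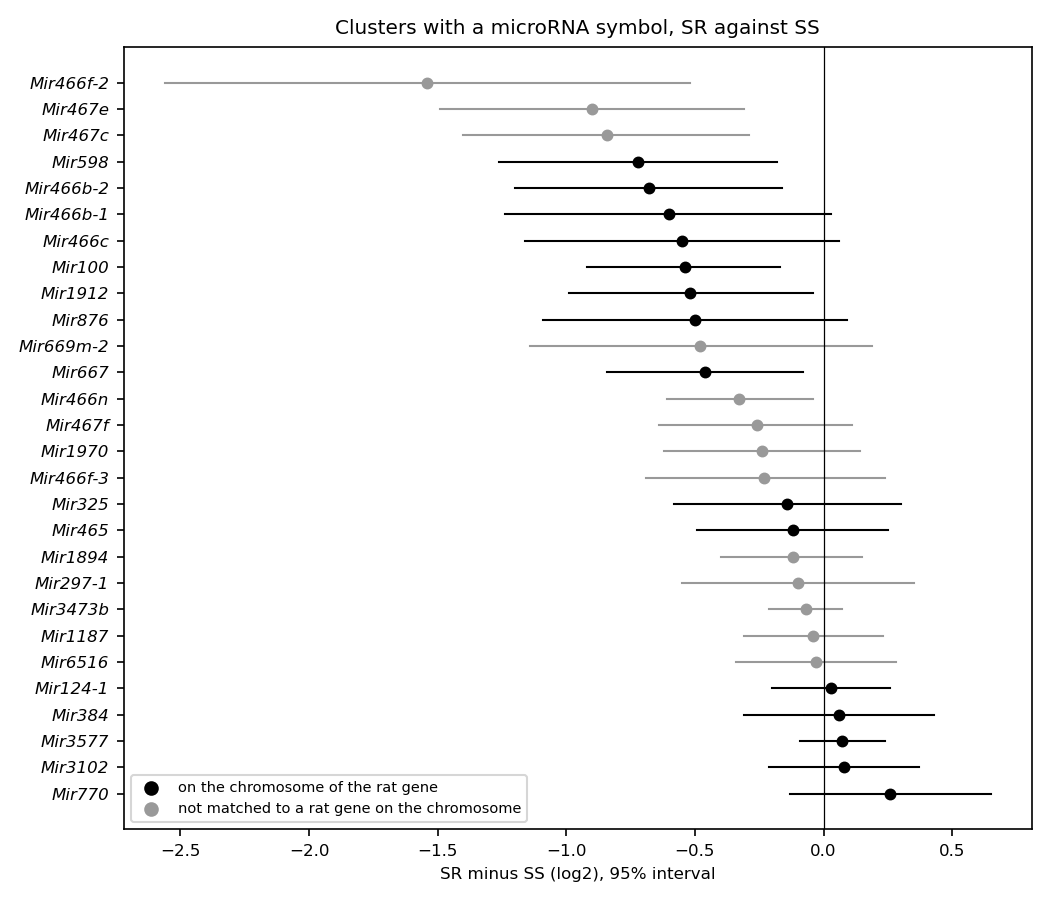
SR minus SS difference (log2, points) with its 95% interval (lines) for 28 distinct tested clusters with a microRNA symbol; black marks the 15 on the chromosome of the rat gene, grey the other 13. The lowest difference, -1.54, belongs to a grey symbol, and 23 of 28 points lie below 0.

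Genes of protein turnover and folding were higher in part. Of 30 tested proteasome and ubiquitin genes, 13 were higher (43.3%, against 10.9% of all tested genes) and 0 lower, with a median difference of 0.15. Psmb5, the chymotrypsin-like catalytic subunit, had 11.39, 11.71 and 12.11 in SR, against 11.27, 11.31 and 11.59 in SS (1.31-fold, log2 0.15 to 0.62), and 4 of 6 SR arrays were above every SS array. The regulatory particle subunits Psmd1 and Psmd12 were 1.21-fold (log2 0.10 to 0.44) and 1.23-fold higher (log2 0.10 to 0.49). Cops5, the deneddylating subunit of the COP9 signalosome, had 10.65, 10.80 and 11.03 in SR, against 10.35, 10.55 and 10.63 in SS, without overlap (1.22-fold, log2 0.14 to 0.44). Psme4, an activator of the proteasome core, ran the other way, 1.21-fold lower (log2 -0.46 to -0.09). The differences of all 24 tested chaperones were above 0 (median over all tested genes 0.06), and 6 of the 24 were higher (25.0%). Among them were Cct2 and Cct7 of the chaperonin ring (1.25-fold, log2 0.11 to 0.54, and 1.16-fold, log2 0.07 to 0.37) and Ahsa1, the activator of Hsp90 (1.29-fold, log2 0.11 to 0.63). In the lysosome list 5 of 27 were higher (18.5%, against 10.9% of all tested genes). They included the proton pump subunit Atp6v1b2 at 1.27-fold (log2 0.11 to 0.58) and Psap, the saposin precursor, at 1.17-fold (log2 0.06 to 0.39).

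Synaptic vesicle and axonal genes were also higher in part. Of 34 tested vesicle and release genes, 10 were higher (29.4%, against 10.9% of all tested genes) and 0 lower, with a median difference of 0.18. Syngr3, a vesicle protein that binds the dopamine transporter, had 10.09, 10.57 and 10.73 in SR, against 9.65, 10.18 and 10.23 in SS (1.32-fold, log2 0.16 to 0.64). All SR arrays but replicate 1 were above every SS array. Vamp1, a vesicle SNARE, was 1.31-fold higher (log2 0.06 to 0.73), Amph, which bends membranes in endocytosis, 1.24-fold (log2 0.09 to 0.52) and the endosomal SNARE Stx7 1.19-fold (log2 0.12 to 0.39). Without SS replicate 4 only 3 of the 34 were higher, against 254 of all 3666 tested genes. Centring on the named genes left 2, against 195 of all tested genes. Nefl, the light chain of neurofilaments, had 12.71, 12.99 and 13.21 in SR, against 12.24, 12.57 and 12.74 in SS. It was 1.36-fold higher (log2 0.22 to 0.66), with 5 of 6 SR arrays above every SS array. Tubb2a, a neuronal tubulin, and Klc1, a kinesin light chain, were 1.25-fold (log2 0.10 to 0.55) and 1.17-fold higher (log2 0.07 to 0.38), in a list where 5 of 25 were higher. The proteoglycans Spock1 and Spock2 were 1.45-fold (log2 0.16 to 0.91) and 1.28-fold higher (log2 0.18 to 0.53).

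Receptors and channels differed less often. Of the 18 postsynaptic scaffold genes and the 26 sodium and calcium channel and pump genes tested, 0 were at an unadjusted p under 0.05 in either direction. Of all tested genes, 10.9% were higher and 1.25% lower. Gabrb2, a beta subunit of the GABA-A receptor, was higher (1.24-fold, log2 0.03 to 0.59). Among 14 glutamate receptor genes, 1 was lower, Grid1, the delta receptor that organizes synapses through cerebellin (1.21-fold, log2 -0.49 to -0.06). Of 26 spiny neuron signalling genes, 1 was higher, Prkaca, a catalytic subunit of protein kinase A (1.24-fold, log2 0.01 to 0.61), and the list's median difference was 0.02. Drd1 differed by 0.20 (-0.35 to 0.75, adjusted p = 0.707) and Drd2 by -0.11 (-0.78 to 0.56, adjusted p = 0.859). Of the dopamine genes tested, 1 of 4 was higher, Maoa, which oxidizes monoamines (1.15-fold, log2 0.00 to 0.41).

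Of 17 neuropeptide genes tested, 2 were higher (11.8%, close to the 10.9% of all tested genes), Cartpt and the granin Chgb (1.16-fold, log2 0.02 to 0.40). Cartpt encodes CART peptides, which modulate the response of the NAc to psychostimulants, and it had the largest difference among the 401 genes higher in SR. Its signal was 10.74, 11.36 and 12.26 in SR as lowest, median and highest values, against 10.06, 10.87 and 11.44 in SS. SR replicates 1 and 5 were above every SS array, and SS replicate 1, the array with high Ttr, was the lowest of all (1.49-fold, 95% interval of the difference 0.11 to 1.05). The study picked this gene on its dorsal striatum arrays, which are not analysed here, and it was followed here for that reason too. A cyclic AMP response element (CRE, TGACGTCA, the same on both strands) is bound by CREB, a factor downstream of protein kinase A. In windows of 300 bases that end just after the start of a gene, 1.83% of 33469 RefSeq promoters (GRCr8) hold it. So do 113 of 3243 promoters of tested genes (3.48%) and 24 of 340 promoters of the genes higher in SR (7.06%), but 2 of 57 promoters of the tested energy genes (3.51%), a share close to that of all tested genes, and 1 of 38 promoters of the genes lower in SR (2.63%). Those of 3 genes are shown, element in capitals, since they belong to Cartpt and to Mdh2 and Ogdh, the 2 energy genes among those 57 promoters.
Cartpt (chr2:32991186-32991485, minus strand): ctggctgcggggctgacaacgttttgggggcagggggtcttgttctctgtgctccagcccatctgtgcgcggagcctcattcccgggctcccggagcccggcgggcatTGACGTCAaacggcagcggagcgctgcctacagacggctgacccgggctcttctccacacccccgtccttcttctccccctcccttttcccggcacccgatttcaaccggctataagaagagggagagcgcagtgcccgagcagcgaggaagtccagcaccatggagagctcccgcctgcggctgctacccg
Mdh2 (chr12:26543792-26544091, minus strand): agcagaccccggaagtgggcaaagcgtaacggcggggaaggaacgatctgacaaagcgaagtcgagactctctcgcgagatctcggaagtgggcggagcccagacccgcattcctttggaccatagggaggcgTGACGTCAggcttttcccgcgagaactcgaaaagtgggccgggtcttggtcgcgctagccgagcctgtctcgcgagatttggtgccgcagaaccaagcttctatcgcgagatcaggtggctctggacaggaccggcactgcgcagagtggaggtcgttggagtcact
Ogdh (chr14:85363781-85364080, plus strand): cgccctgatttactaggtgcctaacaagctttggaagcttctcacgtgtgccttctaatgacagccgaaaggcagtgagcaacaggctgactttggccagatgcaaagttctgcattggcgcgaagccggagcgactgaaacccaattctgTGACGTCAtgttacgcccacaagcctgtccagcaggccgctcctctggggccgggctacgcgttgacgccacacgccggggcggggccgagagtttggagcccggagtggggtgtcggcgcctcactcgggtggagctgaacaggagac
The other motif searched, the core site of the factor NRF1 (GCATGCGC), was in 172 of 3243 promoters of tested genes (5.3%). It was in 28 of 340 promoters of the genes higher in SR (8.24%), so a raised share was not particular to the CRE. Of the 57 energy promoters 2 held it (3.51%), and of the 38 promoters of the genes lower in SR 0 did. A match of letters does not show a bound site, and binding of CREB or NRF1 was not measured here.

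Oxt, the precursor of oxytocin, is made by hypothalamic neurons and was under the signal filter. It had 7.28, 8.45 and 12.51 in SR as lowest, median and highest values, against 5.51, 5.94 and 8.95 in SS, a difference of 2.79 (exact two-sided permutation p = 0.0173, 6 arrays against 6, adjusted p = 0.693 with limma over all clusters). The study picked this gene on these arrays, so the p is not independent evidence. SR replicates 3 and 6 alone were above background, and the other 10 values have no reliable order. Avp, the neighbouring vasopressin gene, was at 6.27 to 6.97 in SR and 5.64 to 7.14 in SS. All Avp values were below background and likewise have no reliable order. The mean over 8 hypothalamic markers, Oxt and Avp included, was 5.38 in SR and 4.94 in SS. In the fit over all clusters, 3 of 8 (Oxt, Avp and Pmch) were higher in SR at an unadjusted p under 0.05. Of all 68842 clusters, 1687 were higher there. Oxt alone was ever above background and was picked by the study, so this count of 3 is not evidence about the markers. Sim1 and Otp, factors of the same neurons, were at 4.02 to 5.17 in SR and 4.05 to 5.24 in SS. The part of hypothalamic tissue in the Oxt signal was not tested. The receptor Oxtr was below background on all 12 arrays (difference 0.13, -0.08 to 0.33). Of the other genes that the study picked, Mettl7a, a membrane methyltransferase-like protein, was 1.40-fold higher (log2 0.13 to 0.83), with 4 of 6 SR arrays above every SS array. Slc17a7, which loads glutamate into vesicles of cortical neurons, differed by 1.10 (-0.65 to 2.85, adjusted p = 0.539), and without SR replicates 2 and 5 the difference was -0.04. Tmem223, Fxyd6, Cym, Fmo2 and Pdk4 were below background on all 12 arrays, with differences of 0.65, 0.33, 0.16, -0.28 and -0.33.

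The 46 genes lower in SR include the 5 microRNA genes described above. Of the others, those with the largest differences or smallest p are described singly. Sgk1, a kinase induced by glucocorticoids, had 9.53, 10.17 and 10.70 in SR, against 10.28, 10.79 and 11.16 in SS. It was 1.56-fold lower (difference -0.64, -1.24 to -0.04), with 3 of 6 SR arrays below every SS array. It was the 1 member of 5 tested glucocorticoid-responsive genes at that threshold, and all 5 differences were below 0 (median -0.19). Mt1m, a metallothionein, was 1.39-fold lower (log2 -0.86 to -0.08). Kmt2e, a chromatin reader of the MLL family, had 12.58 to 13.21 in SR and 12.93 to 13.30 in SS, and SR replicate 1 alone lay among the SS arrays (1.21-fold lower, log2 -0.46 to -0.10). The export and splicing factors Sarnp and Scaf4 were 1.22-fold (log2 -0.49 to -0.09) and 1.13-fold lower (log2 -0.32 to -0.04), and Ino80d, a subunit of a chromatin remodeller, 1.15-fold (log2 -0.37 to -0.04). Atat1, the tubulin acetyltransferase, had 9.16 to 9.58 in SR and 9.61 to 9.77 in SS, without overlap but below background on all 12 arrays (difference -0.26, log2 -0.42 to -0.11). In the list of nuclear RNA-binding and splicing proteins, 4 of 31 were higher (12.9%, near the 10.9% of all tested genes) and 0 lower. The median difference of this list was 0.03, against 0.06 over all tested genes. Sec24a, a coat protein of vesicles leaving the endoplasmic reticulum, is the third gene without overlap and was named after its values were seen, but with a difference of -0.10 it did not reach an unadjusted p under 0.05 and is not among the 46. Of 10 histone and DNA modifying enzymes tested, 0 were at an unadjusted p under 0.05, a list too short to tell from the 10.9% higher and 1.25% lower of all tested genes.

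Lists of glial and vascular cells showed no gene at that threshold. Of 11 oligodendrocyte, 7 astrocyte, 5 microglia and 3 endothelial genes tested, 0 were higher and 0 were lower in SR. Of all tested genes, 10.9% were higher and 1.25% lower, so 0 in lists this short cannot be told from that share. The mean over 6 measured oligodendrocyte markers was 12.56 to 13.24 in SR and 12.58 to 13.17 in SS, and that of 4 astrocyte markers was 10.15 to 11.20 in SR and 10.55 to 11.06 in SS.

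The yoked rats received the shocks of SR or SS partners without METH, so YSR minus YSS asks whether the shock history alone separates rats in the same way. The contrast of the differences, (SR minus SS) minus (YSR minus YSS), called 0 of 9044 probes (smallest adjusted p 0.876), and 226 were at an unadjusted p under 0.05 (2.5%), 75 above and 151 below 0. With 3 yoked arrays per group, the interval for Ndufab1 ran from 0.03 to 0.50 around 0.27. For the 5 energy lists, the median YSR minus YSS lay between 0.03 and 0.15, against 0.14 to 0.22 for SR minus SS. Of the 401 genes higher in SR, 295 had YSR above YSS (73.6%), against 1910 of all 3666 (52.1%), and the median YSR minus YSS was 0.07 against 0.01. Cops5 was among the genes that differed most between the contrasts, with -0.08 in the yoked rats (difference of differences 0.37, 0.11 to 0.63), as was Sgk1, with 0.44 in the yoked rats (difference of differences -1.08, -2.12 to -0.03). Relative to the same CT arrays, the 401 genes, chosen for SR above SS, had a median of 0.24 in SR and of 0.02 in SS, all 3666 genes had 0.105 in SR and 0.042 in SS, and the 15 microRNA genes -0.38 in SR and 0.04 in SS.

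**Figure D5:**
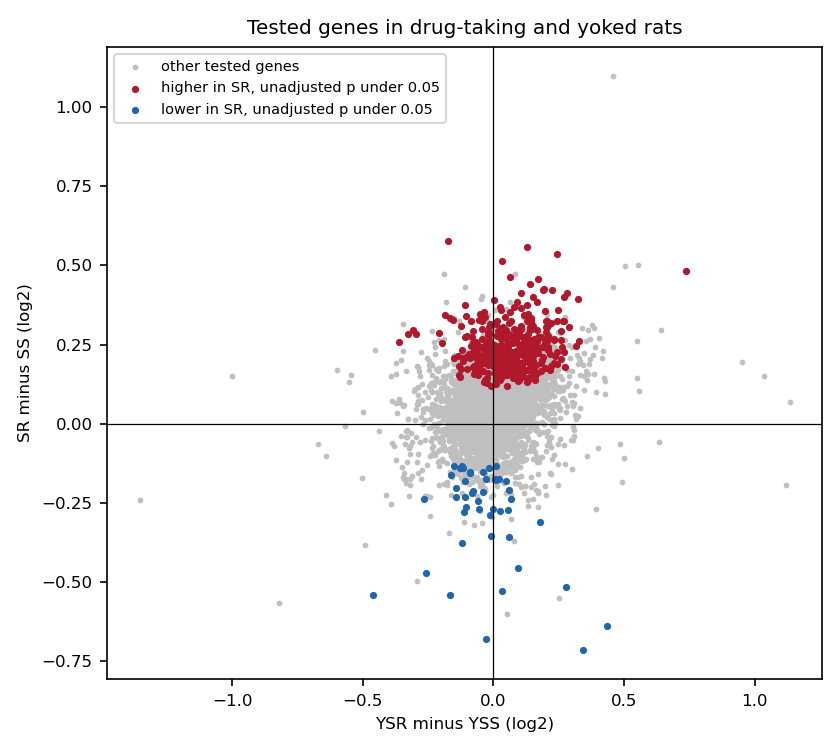
SR minus SS (vertical, log2) against YSR minus YSS (horizontal, log2) for the 3666 tested genes, with red for the 401 higher and blue for the 46 lower in SR at an unadjusted p under 0.05. Of the red points, 295 lie to the right of 0.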

How the data were processed

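The values used are log2 signals that the authors deposited for every array. The submitters' processing notes name Affymetrix Expression Console. How background, normalization and summarisation were done, and on which build, the paper and labels do not state. The authors also deposited a table with group averages of log2 signals, group standard deviations and fold changes as scores, and p-values of their own comparisons, of which none is used. RNA came from individual rats.

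Tests used limma 3.58.1 in R 4.3.3 (lmFit and eBayes, two-sided, 1 fit of 5 groups) with Benjamini-Hochberg adjustment over the 9044 tested probes of 68842 clusters, and Python 3.11.15 prepared tables and plots. For genes under the filter the fit was run on all clusters. The fit was tested on simulated data. A gene is represented by its cluster with the highest mean. Symbols were updated through the RefSeq table of GRCr8. Of 9044 probes, 3857 had 1 symbol, 188 several and 4999 none, and 99 of the 3857 lay on another chromosome than the gene, or had no gene in the table, and are not used as genes. Named genes are the 15 with the smallest p and the 10 with the largest difference per direction, those of the study and up to 4 per list. Not all are printed, and other genes named serve as markers or list members. Members and gene lists were chosen with earlier results of these data known. Alternatives covered the filter, normalization, moderation, array weights, the replicate number as a block and each array left out. No 2 arrays were identical. The number of arrays limits the precision. Titles of CT, SR and SS arrays share a mark that the yoked arrays lack, of unknown meaning.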

Additional observations from a re-analysis of the deposited data

Results flagged for a closer look

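An array set apart from the other 5 of its group, by the gap to its nearest neighbour over the group's range, occurred in 11 of 196 groups of the genes followed, and chance gives about 1 in 20. Of the SR arrays, replicate 1 was apart in 3 genes, with Kmt2e at 13.21, Sdha at 11.41 and Hk1 at 12.30. Of the SS arrays, replicate 2 was high for Slc9a7 at 10.82 and for Atat1 at 9.77. SS replicate 4 was low for Syngr3 at 9.65 and for Psmd1 at 12.08. SS replicate 5 was low for Stard3nl at 9.13, a lysosomal sterol-tethering protein whose difference of 0.56 is 0.32 without that array, and high for Mir667 at 11.17 and Psmb5 at 11.59. SS replicate 6 was low for Magec2l1 at 10.56.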

How the results depend on the processing

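The contrast with the yoked rats had 0 adjusted calls under every alternative run, and no SR minus SS alternative gave any adjusted call except array weights (751) and leaving out 1 array (0 to 298, the highest without SR replicate 1). The 1133 probes at an unadjusted p under 0.05 became 4742 with no filter, 2451 with array weights, 537 with 1 probe per gene and 517 to 2257 with 1 array left out, lowest without SR replicate 5 and highest without SR replicate 1. The 70 probes past 1.7-fold became 115 with no filter, 3 with 1 probe per gene and 18 to 189 with 1 array left out, again lowest without SR replicate 5 and highest without SR replicate 1. Noncoding clusters lower in SR, 310, became 1745 with no filter, 575 with array weights and 114 to 550 with 1 array left out. Coding clusters higher in SR, 448, became 1269 with no filter, 693 after quantile normalization, 960 with array weights and 252 to 836 with 1 array left out. With 1 array left out, higher genes numbered 17 to 39 for energy metabolism, 6 to 17 for the proteasome list and 3 to 16 for synaptic vesicles (17 with array weights), and lower microRNA genes 3 to 8 (8 with array weights). Over all tested genes, 223 to 754 were then higher (838 with array weights). The Oxt difference ran from 2.14 to 3.29 with 1 array left out. The causes were not tested.

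The following 4 alternatives were chosen after seeing the data. Without SR replicates 5 and 6 the counts were 321 probes at an unadjusted p under 0.05, 3 past 1.7-fold, 52 noncoding, 138 coding, 7 energy, 3 proteasome, 4 synaptic vesicle and 3 microRNA genes. Over all tested genes, 125 were higher and 73 lower there. Without SR replicates 2 and 5 the counts were 710 probes, 28 past 1.7-fold, 5 proteasome and 6 synaptic vesicle genes, with 287 higher over all tested genes. Without SR replicate 1 and SS replicate 4, 140 probes were past 1.7-fold. With equal medians of the named clusters, the counts were 212 coding, 20 energy, 6 proteasome and 2 synaptic vesicle genes. That setting gave 244 probes higher and 1128 lower (17.8% higher, against 46.0%), and 195 genes higher and 246 lower, while quantile normalization gave 861 higher and 680 lower (55.9%). Signs turned for Slc17a7 (-0.04 without SR replicates 2 and 5), Ptpro (-0.32 to 0.07 with 1 array left out, the highest without SS replicate 4, and 0.18 without SR replicate 1 and SS replicate 4) and Mir325 (0.04 without SR replicates 5 and 6).

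When replicate number entered as a block, 0 probes passed the adjusted threshold and 1009 the unadjusted one (446 higher and 563 lower). The numbers do not pair the rats: deviations of same-numbered SR and SS arrays correlated at -0.30 to 0.44, and 2 of 6 SR arrays were closest to their own number.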
